A study of Aspergillus nidulans with 6 samples.

Results

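AtfA-bound promoters of 5 membrane transporter genes (enaA, uapC, vcxA, mstB and AN4277) and of the arrestin gene artA were examined in Aspergillus nidulans conidia. Their 6 regions were chosen from the peak lists themselves, as intervals that held peaks upstream of or at the start of these genes, so presence of a peak there is a description and not a test. They held 36 of the 2723 peaks in 6 lists and made up 6 of 707 regions that formed when overlapping peaks of all libraries were merged. AtfA is a bZIP transcription factor of fungal stress signalling, which in fission yeast corresponds to Atf1 and binds the cAMP response element (CRE). Plasma membrane and vacuolar transporters set ion balance and the uptake of sugars and purines, and arrestins bring a ubiquitin ligase to such transporters, which are then taken in by endocytosis. Conidia are dormant, stress-tolerant asexual spores that resume growth when nutrients are present.

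ChIP-seq with an anti-FLAG antibody was carried out on conidia from agar surface cultures in 3 conditions with 2 libraries each. The MSB-treated 3 d conidia were 3 d old and had received 0.04 mM menadione sodium bisulfite (MSB), a compound that raises intracellular superoxide. The untreated 3 d and untreated 2 d conidia received no MSB and were 3 d or 2 d old. All conditions used the same strain, in which the deletion of atfA with AfupyrG+ had been complemented by atfA-3XFLAG under the native atfA promoter, with pyroA+ as marker and in a veA+, pyrG89, pyroA4 background, so tagged AtfA was its only AtfA. No input or untagged library was analysed here, and, although the study calls its replicates biological, the labels do not name separate cultures, so the spread between them may be technical.

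The lists held 434 to 473 peaks with median widths of 300 to 400 bp. Each peak had a score for the signal at its summit. Scores of different lists were not on a common scale, and each was therefore ranked as a percentile among the peaks of its own list, where 100% is the best-scored peak. In every list the scores were whole multiples of a single step, and the median peak stood at 235 and 335 steps in the MSB-treated 3 d libraries, 59 and 112 in the untreated 3 d libraries and 76 and 80 in the untreated 2 d libraries. If a step is taken as 1 read, a 95% Poisson interval of that number gives a counting error for each percentile. Sequencing depth itself was not given with the lists.

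Of the 6 regions, 5 held a peak in all 6 libraries, a property shared by 250 (35.4%) of the 707 merged regions. The exception was artA, with a peak in 4 libraries. By mean percentile over libraries the genes stood in the order uapC, vcxA, mstB, enaA, AN4277 and artA. Between mstB and enaA, and nowhere else in this order, the ranges of neighbouring genes did not overlap (lowest mstB value 65.5%, highest enaA value 64.1%). This did not part the genes into separate classes. AN4277 also reached 65.5%, in the same library as the lowest mstB value, untreated 3 d replicate 1. uapC, vcxA and mstB had wide peaks, with mean widths of 607 to 803 bp. enaA, AN4277 and artA had narrower peaks, of 250 to 387 bp on average. Among the 250 regions with a peak in all libraries the median of the mean widths was 448 bp and the median of the mean percentiles 68.7%.

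**Figure D1:**
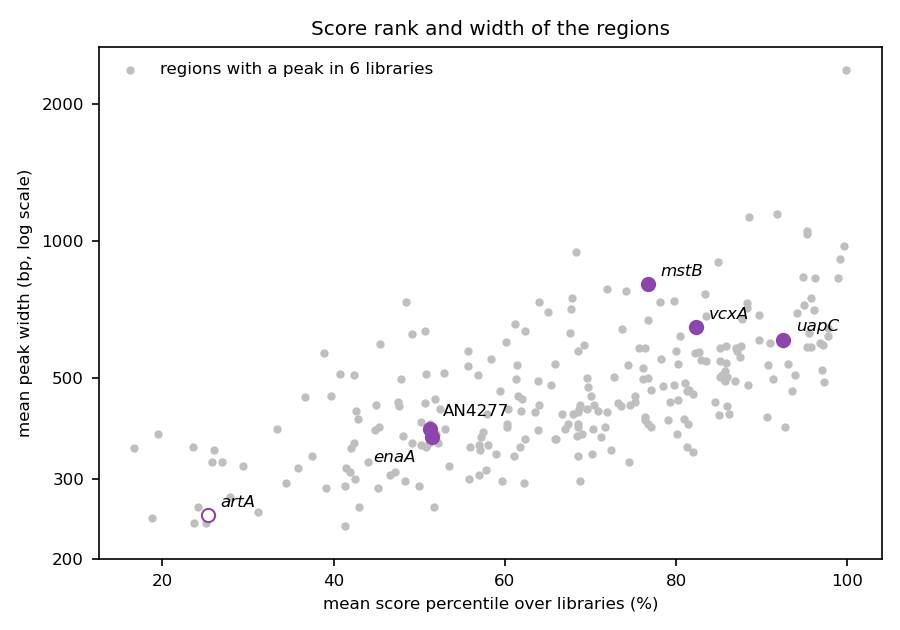
Mean peak width (bp, log scale) against mean score percentile (%), averaged over libraries. Grey points are the 250 regions with a peak in all 6 libraries, filled purple points the 5 transporter genes and the open point artA, averaged over the 4 libraries with a peak. uapC, vcxA and mstB lie at 76.8% or above with widths of at least 607 bp, and enaA, AN4277 and artA at 51.5% or below with widths up to 387 bp.

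uapC (AN6730) encodes a plasma membrane purine permease of broad specificity, which takes up uric acid and xanthine among other purines. Its region (chromosome I, 3001281-3002020) was the best-scored of the 6. The peak stood at 95.6% and 96.9% in the MSB-treated 3 d libraries, at 92.0% and 91.1% in the untreated 3 d libraries and at 93.7% and 85.8% in the untreated 2 d libraries. Both treated libraries were above all untreated ones, by a margin smaller than the spread among the untreated libraries. The mean of 92.5% ± 3.93 (SD, n = 6 libraries) ranked 26th among the 250 regions with a peak in all libraries. The range over libraries was 11.1 percentage points, where the 12 regions within 2 points of uapC in mean percentile, uapC included, had a median range of 10.3 points, so it was ordinary for a region that high in the lists.

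The uapC summits varied little, with a range that 33.6% of the regions with a peak in all libraries did not exceed. They lay within 40 bp of each other in the 6 libraries, in 3 of them (both MSB-treated 3 d libraries and untreated 3 d replicate 2) at the same position, 3001670. The peak was 660 and 740 bp wide in the MSB-treated 3 d libraries, 560 and 660 bp wide in the untreated 3 d libraries and 540 and 480 bp wide in the untreated 2 d libraries. The widths of both 3 d conditions were above those of the untreated 2 d libraries, with MSB-treated 3 d and untreated 3 d meeting at 660 bp. Median widths of the lists were 400 and 360 bp for MSB-treated 3 d and 340 bp for untreated 3 d. Those of untreated 2 d were 300 and 340 bp. Ranked within its list, the uapC width stood at 83.7% and 92.8% in MSB-treated 3 d and at 86.0% and 91.4% in untreated 3 d. In untreated 2 d it stood at 89.7% and 77.2%, so by rank the conditions overlapped. The next AtfA region on the chromosome was 46200 bp away.

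vcxA (AN0471) encodes a putative vacuolar exchanger of protons and calcium ions, a kind of protein that moves calcium from the cytosol into the vacuole. Its region (chromosome VIII, 3452981-3453960) was the only one of the 6 that held more than 1 peak in some libraries. The best peak stood at 87.3% and 87.2% in the MSB-treated 3 d libraries, at 82.3% and 69.3% in the untreated 3 d libraries and at 86.0% and 81.9% in the untreated 2 d libraries. The treated libraries were the highest, but untreated 2 d replicate 1 came close to them. Untreated 3 d replicate 2 was the lowest library. The mean was 82.4% ± 6.83 (SD, n = 6 libraries), which ranked 65th among the 250 regions.

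The summit of the best vcxA peak moved by at most 50 bp between libraries, from 3453200 to 3453250. Calls differed on the side of the region that faces the gene. MSB-treated 3 d replicate 1 had an additional peak of 240 bp there, 100 bp from the edge of the main peak, at 17.4% of its list. Untreated 3 d replicate 1 likewise had an additional peak, of 380 bp, 80 bp from the main peak and at 31.5%. The additional peak of MSB-treated 3 d replicate 1 (3453641-3453880) lay inside that of untreated 3 d replicate 1 (3453581-3453960), with summits 500 bp and 620 bp from the main summit of the same library. In MSB-treated 3 d replicate 2 and in untreated 2 d replicate 1 a single peak of 920 bp covered the whole stretch, from 3453001 to 3453920. Untreated 3 d replicate 2 and untreated 2 d replicate 2 had only the main peak, 500 and 460 bp wide, with nothing called on the side of the gene. The stretch near the gene was thus covered in both MSB-treated 3 d libraries, in 1 of 2 untreated 3 d libraries and in 1 of 2 untreated 2 d libraries, a split within both untreated conditions.

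**Figure D2:**
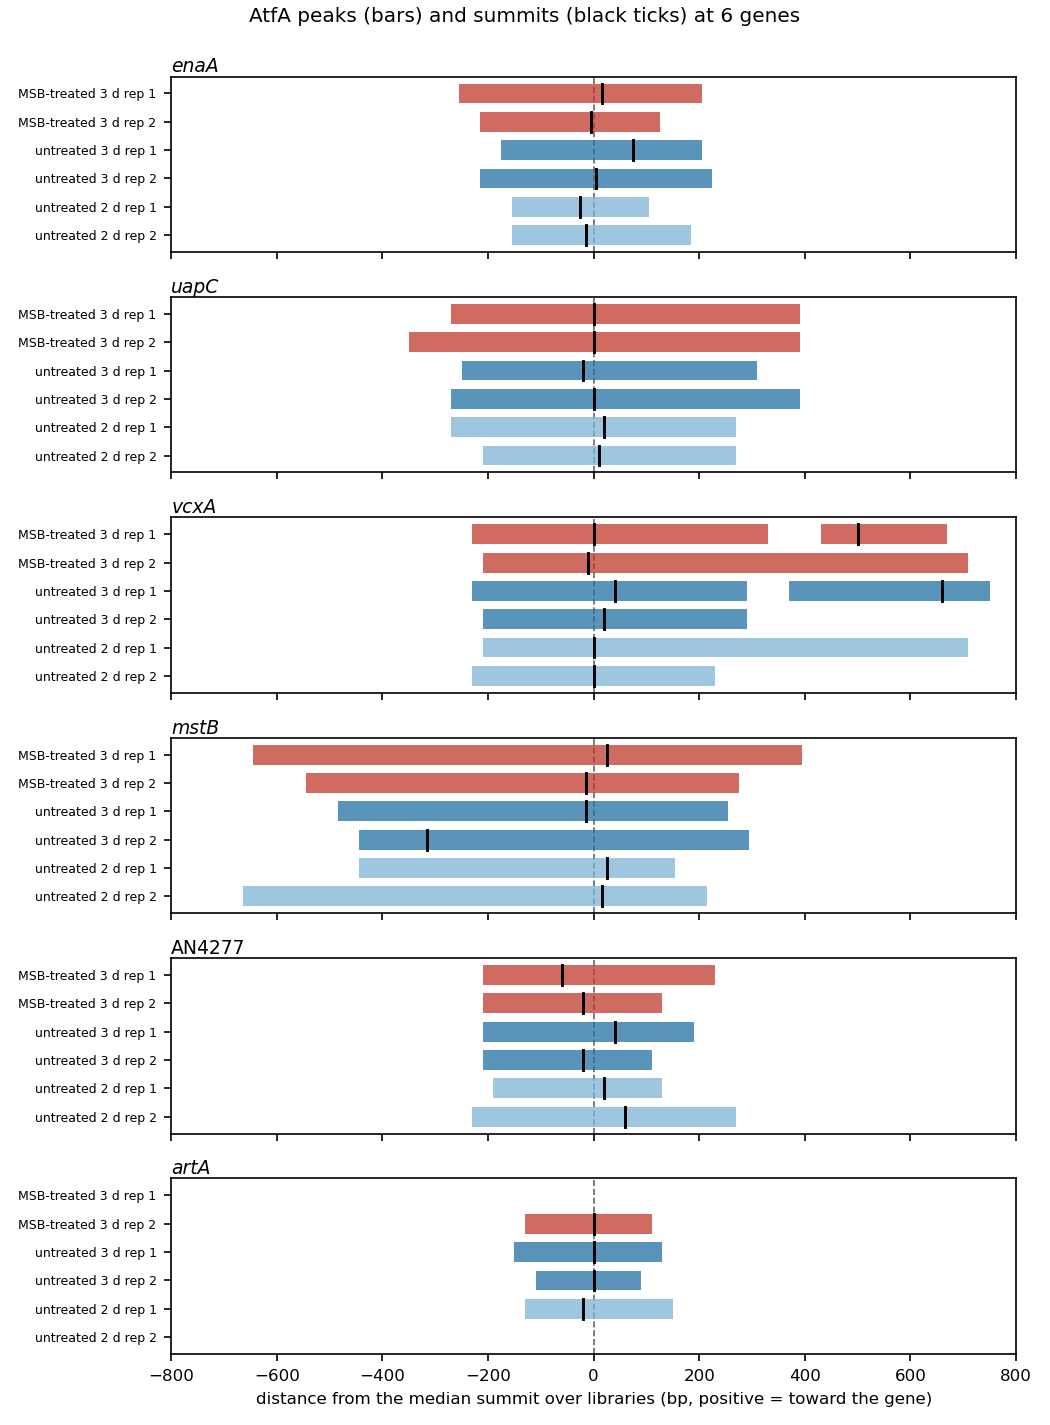
Peaks (bars) and their summits (black ticks) in each library at the 6 genes. The x axis is the distance in bp from the median summit of the best peaks, positive toward the gene, and rows are libraries, with MSB-treated 3 d in red, untreated 3 d in dark blue and untreated 2 d in light blue. Summits lie within 40 bp at uapC and 20 bp at artA, 1 mstB summit lies apart from the other 5, and the stretch of vcxA that faces the gene is covered in 4 of 6 libraries.

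mstB (AN2475), annotated as a putative sugar transporter, had the widest peaks. Its region (chromosome VII, 4063081-4064140) held a peak of 1040 and 820 bp in the MSB-treated 3 d libraries, of 740 bp in both untreated 3 d libraries and of 600 and 880 bp in the untreated 2 d libraries. The conditions overlapped, since untreated 2 d replicate 2 had a wider peak than MSB-treated 3 d replicate 2. The mean width of 803 bp was at or above that of 95.2% of the regions with a peak in all libraries. Summits lay between 4063450 and 4063490 in 5 libraries, and at 4063790 in untreated 3 d replicate 2. That shift gave a range of 340 bp, at or above that of 93.6% of those regions, although both edges of the peak in that library were in the range of the others.

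The mstB peak stood at 88.4% and 86.3% in the MSB-treated 3 d libraries, at 65.5% and 70.7% in the untreated 3 d libraries and at 72.2% and 77.3% in the untreated 2 d libraries. Here the treated libraries were the highest and the untreated 3 d libraries the lowest, with no overlap among the 3 conditions. The mean was 76.8% ± 9.06 (SD, n = 6 libraries), ranked 90th of 250. The counting intervals of the percentiles still met: 78.4% to 92.9% for MSB-treated 3 d replicate 1 and 42.9% to 83.7% for untreated 3 d replicate 1.

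Farther from mstB, 280 bp beyond the edge of its region, lay another region with a peak in all 6 libraries (chromosome VII, 4064421-4065220). Of the 250 such regions, 2 (0.8%) had another as near, and these are the pair at mstB. Peaks of the outer region stood at 90.9% and 80.4% in the MSB-treated 3 d libraries, at 88.3% and 75.6% in the untreated 3 d libraries and at 76.0% and 90.0% in the untreated 2 d libraries. The conditions overlapped at the outer region, unlike at the inner one. Whether the outer region belongs to mstB or to its neighbour was not analysed here. Apart from this pair, single-library peaks lay within 3000 bp of 2 regions, at enaA in untreated 3 d replicate 1 (62.4%) and at artA in untreated 2 d replicate 1 (49.5%).

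enaA (AN6642) encodes a putative P-type ATPase of the ENA type, which in yeast expels sodium ions and is needed at alkaline pH. Its region lay on chromosome I at 2709621-2710100, over the start of the gene. The peak stood at 46.8% and 64.1% in the MSB-treated 3 d libraries, at 42.5% and 50.1% in the untreated 3 d libraries and at 62.1% and 43.2% in the untreated 2 d libraries. Each condition had a library below 50% and all 3 overlapped. The mean was 51.5% ± 9.43 (SD, n = 6 libraries), 191st of 250. Widths were 460 and 340 bp in the MSB-treated 3 d libraries, 380 and 440 bp in the untreated 3 d libraries and 260 and 340 bp in the untreated 2 d libraries. The narrowest peak was that of untreated 2 d replicate 1, whose list also had the lowest median width, 300 bp. The summits spanned 100 bp, with untreated 3 d replicate 1 the nearest to the gene body.

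AN4277, whose annotation names orthologues with glucose transport activity, resembled enaA in score and in width. Its region was on chromosome II at 1533401-1533900. The peak stood at 55.6% and 59.1% in the MSB-treated 3 d libraries, at 65.5% and 31.8% in the untreated 3 d libraries and at 58.0% and 37.6% in the untreated 2 d libraries. Both the highest and the lowest value were those of untreated 3 d libraries, and the treated libraries fell between them. The mean of 51.3% ± 13.4 (SD, n = 6 libraries) ranked 193rd of 250. Counting intervals of 42.9% to 83.7% and of 14.6% to 57.0% for the 2 untreated 3 d libraries overlapped. Widths ranged from 320 to 500 bp and summits spanned 120 bp.

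artA (AN0056) encodes an arrestin-like protein that in A. nidulans acts in ubiquitylation and endocytosis of the purine transporter UapA. Its region (chromosome VIII, 4733161-4733460) was the shortest and the lowest in score. A peak was called in MSB-treated 3 d replicate 2 (29.7%), in both untreated 3 d libraries (20.0% and 14.2%) and in untreated 2 d replicate 1 (37.5%). No peak was called in MSB-treated 3 d replicate 1 or in untreated 2 d replicate 2, so each of these conditions had 1 library with and 1 without the peak. The called peak had 296 steps in MSB-treated 3 d replicate 2, 44 and 80 in the untreated 3 d libraries and 66 in untreated 2 d replicate 1, where the weakest peaks of the same lists had 203, 31, 61 and 35. The lists without the peak ended at 121 steps (MSB-treated 3 d replicate 1) and 41 steps (untreated 2 d replicate 2), and a signal below those ends cannot be seen in a list. No list held a peak narrower than 200 bp either, and the artA peak of untreated 3 d replicate 2 was 200 bp wide. Why the peak was missing from those lists was not tested. Where it was called, the artA summit had the smallest range of the 6, but over 4 libraries, where the other genes had 6. It lay at 4733310 in 3 libraries and at 4733290 in the other, with widths of 200 to 280 bp.

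**Figure D3:**
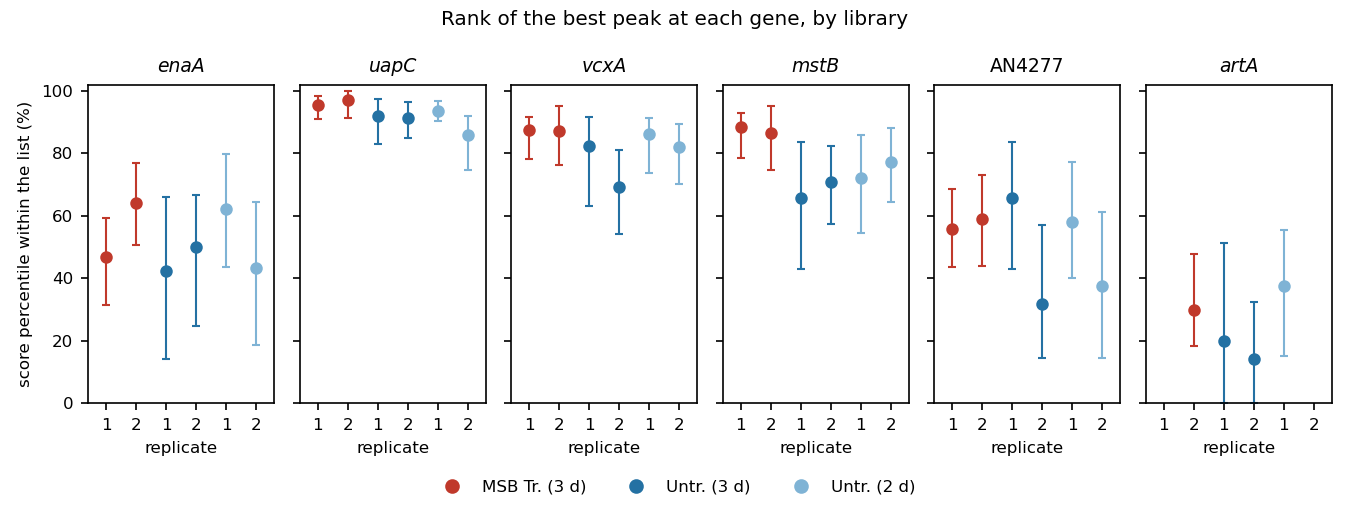
Score percentile (%) of the best peak at each gene in each library, with MSB-treated 3 d, untreated 3 d and untreated 2 d from left to right and replicates 1 and 2 within each. Bars are the percentiles allowed by a 95% Poisson interval of the number of steps and cover counting error only. The treated libraries lie above all untreated ones at uapC, vcxA and mstB, and all bars of a gene overlap in pairs.

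The treatment was compared first at matched age, MSB-treated 3 d against untreated 3 d, over the 5 regions with a peak in every library. The MSB libraries were higher without overlap at 3 of 5 regions, and at no region lower. Over all 296 regions with a peak in these 4 libraries, 27% were higher and 25% lower without overlap. mstB averaged 87.4% ± 1.47 in MSB-treated 3 d and 68.1% ± 3.67 in untreated 3 d conidia (SD, n = 2 each), a difference of 19.2 points (exact permutation test, two-sided p = 0.333, adjusted p = 0.641 over the 296 regions). vcxA averaged 87.3% ± 0.0446 in MSB-treated 3 d and 75.8% ± 9.23 in untreated 3 d conidia, and uapC 96.3% ± 0.947 in MSB-treated 3 d and 91.5% ± 0.591 in untreated 3 d conidia. Their differences were 11.5 and 4.71 points, each again with exact permutation p = 0.333 and adjusted p = 0.641. The smallest p that the exact permutation test can give for 2 against 2 libraries is 0.333, so no difference could pass 0.05 in this test. Without untreated 3 d replicate 2 the vcxA difference was 4.93 points, and without untreated 3 d replicate 1 it was 18.0.

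At the remaining regions the conditions overlapped. enaA differed by 9.16 points (exact permutation p = 0.667, adjusted p = 0.865), which became 0.496 points without MSB-treated 3 d replicate 2 and 17.8 without MSB-treated 3 d replicate 1. AN4277 differed by 8.69 points (exact permutation p = 1, adjusted p = 1). AN4277 averaged 57.4% ± 2.46 in MSB-treated 3 d and 48.7% ± 23.8 in untreated 3 d conidia, and without untreated 3 d replicate 2 its difference was -8.17 points. The single MSB-treated 3 d library with an artA peak stood 12.6 points above the mean of the untreated 3 d libraries, with no test. The median difference over the 5 regions was 9.16 points and ran between 4.93 and 16.6 points when each library was left out in turn. It was 16.6 points without untreated 3 d replicate 1 and 4.93 points without untreated 3 d replicate 2.

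Age was compared in the untreated conidia, untreated 3 d against untreated 2 d. At 1 of 5 regions, mstB, the untreated 3 d libraries were lower without overlap, and at none higher, against 16.7% lower and 17.5% higher over the 263 regions with a peak in these libraries. mstB averaged 68.1% ± 3.67 in untreated 3 d and 74.8% ± 3.61 in untreated 2 d conidia (SD, n = 2 each), a difference of -6.62 points (exact permutation p = 0.333, adjusted p = 0.948 over the 263 regions). For vcxA and enaA the differences were -8.16 and -6.32 points, with overlapping libraries (exact permutation p = 0.667 and adjusted p = 0.948 for each). The vcxA value was -1.63 points without untreated 3 d replicate 2 and -14.7 without untreated 3 d replicate 1. For uapC and AN4277 they were 1.80 and 0.883 points (exact permutation p = 1 for each). Without untreated 2 d replicate 1 the enaA difference was 3.10 points, and so was the median over the 5 regions. For artA the difference to the single untreated 2 d library with a peak was -20.4 points, with no test.

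Both contrasts share the untreated 3 d libraries, so they are not independent. MSB-treated 3 d was also set against all 4 untreated libraries, in which age is not matched. That contrast holds all libraries of the first one, so it is not independent of it either. The MSB libraries were above every untreated library at the same 3 of 5 regions, against 10.8% of the 250 regions with a peak in all libraries (8% were lower). For mstB the difference was 15.9 points, between 87.4% ± 1.47 in MSB-treated 3 d (n = 2) and 71.4% ± 4.84 in untreated conidia (SD, n = 4), with exact permutation p = 0.0667, the smallest that this test allows, and adjusted p = 0.781. That p was shared by 13 of the 250 regions. For vcxA it was 7.38 points (exact permutation p = 0.2, adjusted p = 0.781) and for uapC 5.61 points (exact permutation p = 0.133, adjusted p = 0.781). enaA and AN4277 differed by 5.996 and 9.13 points with overlap (exact permutation p = 0.6 and 0.533, adjusted p = 0.909 and 0.871).

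The lists of the treated conidia also spanned a smaller range of scores. The highest score was 4.47 and 2.75 times the lowest in the MSB-treated 3 d lists, 9.87 and 6.85 times in the untreated 3 d lists and 10.9 and 9.68 times in the untreated 2 d lists. With scores expressed as multiples of the list median, in place of ranks, uapC stood at 1.68 ± 0.200 in MSB-treated 3 d, 1.83 ± 0.000107 in untreated 3 d and 1.89 ± 0.341 in untreated 2 d conidia (SD, n = 2 each). Its difference between MSB-treated 3 d and untreated 3 d was then -0.155, against 4.71 points on the percentile scale. On that scale vcxA stood at 1.43 ± 0.118 in MSB-treated 3 d, 1.37 ± 0.152 in untreated 3 d and 1.58 ± 0.0484 in untreated 2 d conidia. For mstB the multiples were 1.43 ± 0.145 in MSB-treated 3 d, 1.24 ± 0.0582 in untreated 3 d and 1.38 ± 0.0679 in untreated 2 d conidia. As multiples of the list median, mstB kept a positive difference in both MSB contrasts, vcxA only against untreated 3 d and uapC in neither.

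Of the 81 pairs of libraries that could be compared within a gene, all 81 had overlapping counting intervals, within conditions as between them. These intervals assume 1 read per step and can be wide, as for artA in untreated 3 d replicate 1 (0.211% to 51.2%). Their overlap is therefore no test of a difference between conditions.

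The study named other transporter and arrestin genes beside these, as AtfA-bound on the same samples, so they are not an independent set. Of 12 such genes 6 could be placed on the lists, and 4 of these had a peak in all 6 libraries. Placement needed several listed peaks, and 5 of the 6 genes left out had only 1, so placement favours genes with peaks in several lists. artB (AN1089), a putative arrestin-related trafficking adapter like artA, had a mean percentile of 63.9% and was present in every library, where artA had 25.4% and was present in 4. AN6856, a putative nucleoside transporter, averaged 50.8%, AN2822, an aquaporin, 42.4% and AN7295, a putative transmembrane transporter, 33.4%. AN8279, the orthologue of the yeast arginine permease gene CAN1, averaged 36.2% over 5 libraries, the exception being untreated 2 d replicate 2, which also lacked the artA peak.

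AN7138, a predicted transmembrane transporter, had a peak in none of the MSB-treated 3 d libraries and in all 4 untreated ones. The study already marks this gene as bound in untreated cultures only, so the pattern is no separate finding. The share of all merged regions with that pattern was not counted. The place of AN7138 is also less certain, since its listed positions matched 3 places and its RefSeq chromosome decided between them. Its percentiles were 48.7% and 17.6% in the untreated 3 d libraries and 48.0% and 0.461% in the untreated 2 d libraries. The last of these, in untreated 2 d replicate 2, stood at the weak end of its list. None of these 6 genes reached the mean percentile of mstB, vcxA or uapC. In none of the 5 with a peak in MSB libraries did these stand above all untreated ones, a pattern that 10.8% of the 250 regions showed. AN6856 had the opposite pattern, which 8% of the 250 regions showed. Its MSB libraries stood at 41.1% and 33.0%, below all 4 untreated ones, the lowest of which stood at 46.2%.

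**Figure D4:**
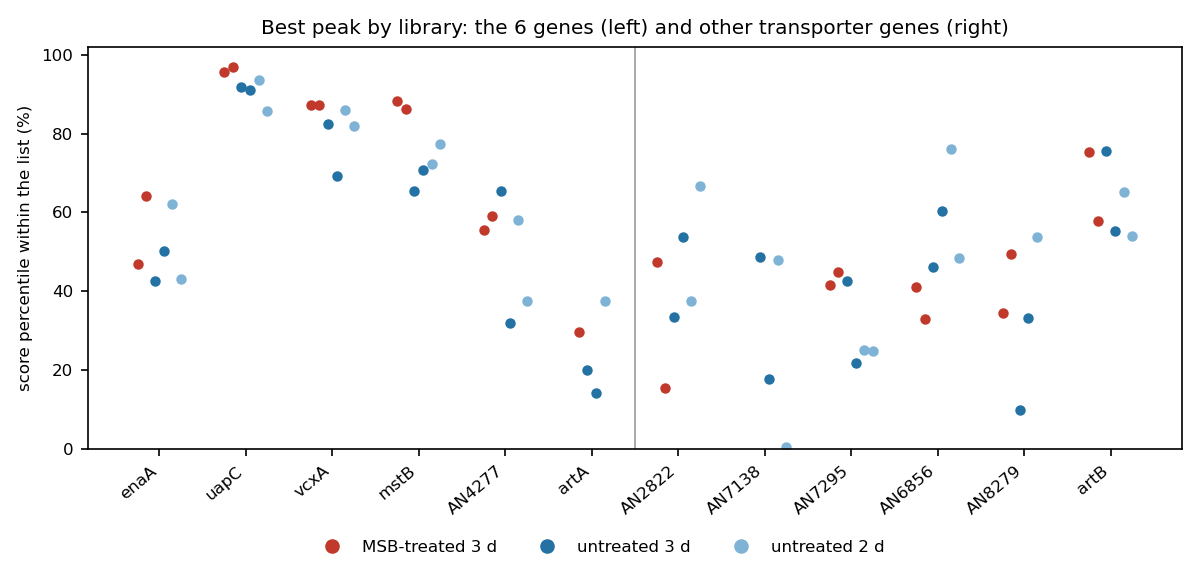
Score percentile (%) of the best peak in each library for the 6 genes (left of the grey line) and for 6 other transporter and arrestin genes that could be placed (right). Each point is a library, coloured by condition as in the legend, and missing points are libraries with no peak. artB, at 63.9% on average, is the highest of the right-hand genes and AN7138 has no point in MSB-treated 3 d.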

How the data were processed

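ChIP-seq was carried out on 6 libraries of conidia from a strain with FLAG-tagged AtfA, 2 per condition, with single reads of 75 bp. Per the submitters' notes and the study's methods, the authors aligned the reads to the A. nidulans genome of the MycoCosm portal with Bowtie2, removed duplicates with Picard, normalized coverage to RPKM with deepTools and called peaks with MACS2 in each library. The deposited lists give each peak with a score in whole numbers on a scale set separately in each library, and a summit, whose offset carries no unit of its own and is read here in bp (other columns of the deposited files are 0). No input, read depth or peak p-value was given in the sources used here, and the release of the genome build is not given there either.

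Peaks of all lists were merged where they overlapped by at least 1 bp. Regions of the 6 genes were taken as intervals, the best-scored peak of a library was used, and its score was ranked within its list. Groups were compared by two-sided exact permutation tests over libraries, adjusted (Benjamini and Hochberg) over all regions with a peak in the libraries compared, and not over the members as first planned, since these were not chosen blind. Each list's step was the largest value that left its scores whole multiples within 1 unit, which held for 100% of scores. Poisson intervals at 95% cover counting error only. Which side of a region faces the gene, and the peaks of other transporter genes, were found by matching peak centres to the positions that the study lists relative to start sites (window 1000 bp upstream to 50 bp downstream). All 6 genes lay on the chromosome given for them by RefSeq (ASM1142v1), whose coordinates differ from those of the lists. artA was placed only within its interval. AN7138 matched 3 places, and the 1 on its RefSeq chromosome was taken. Promoter motifs, and transporter genes beyond those named by the study, were not analysed here. Members and lists of genes were chosen with earlier results of these data known. The genes named are the 6 members and the placed genes of that list. Alternatives were the width percentile of the widest peak, the mean over peaks of a region, ranks among regions with a peak in all libraries, an overlap of 50%, the 300 best-scored peaks, merging within 100 bp, peak centres, replicates as a block and leaving out each library. Multiples of the list median and crossed replicate numbers were added after seeing the data. Analyses used Python 3.11.15, numpy 2.4.6, scipy 1.17.1 and matplotlib 3.10.9. The merging, the score step and the count of regions without overlap were run on simulated lists with known answers. The permutation test was checked on a small fixed example only.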

Additional observations from a re-analysis of the deposited data

How the results depend on the processing

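The exact permutation test cannot pass 0.05 with 2 libraries per condition, so directions only are compared here, and the cause of each change was not tested. Of 118 alternative values for single genes that could differ from the reported one, 17 changed sign. With the width percentile of the widest peak in place of the score, the median difference was -0.455 points for MSB-treated 3 d minus untreated 3 d, -0.0769 for untreated 3 d minus untreated 2 d and 1.00 for MSB-treated 3 d minus all untreated. By width, MSB-treated 3 d minus untreated 3 d was -9.70 for enaA, -0.455 for uapC and -2.60 for AN4277, untreated 3 d minus untreated 2 d was 20.6 for enaA and -14.6 for AN4277, and MSB-treated 3 d minus all untreated was -9.91 for AN4277. As multiples of the list median, uapC differed by -0.155, -0.0604 and -0.185 in the same 3 contrasts and vcxA by -0.0485 in the last. With the mean over both vcxA peaks the last contrast was -3.73 points.

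Leaving out each library in turn, the medians ran from 4.93 to 16.6 points, from -9.36 to 3.10 and from 5.57 to 10.9 in the 3 contrasts. Those of AN4277 ran from -8.17 to 25.6 and from -16.0 to 17.7 in the first pair, and those of enaA from -15.7 to 3.10 for untreated 3 d minus untreated 2 d and from -2.67 to 14.7 for MSB-treated 3 d minus all untreated. uapC ran from -2.11 to 5.72 for untreated 3 d minus untreated 2 d. mstB kept its direction in all 3 contrasts under every alternative run, but by width its differences were only 1.04, -0.0769 and 1.00 points. vcxA ran from 4.93 to 18.0, from -14.7 to -1.63 and from 3.84 to 9.43, and enaA from 0.496 to 17.8 in the first contrast. The count of 5 regions with a peak in all libraries became 4 with the 300 best-scored peaks of each list, where AN4277 was in 5 lists and artA in 1, and stayed at 5 under the other settings. Ranges of centres were 60 bp for enaA and uapC, 250 bp for vcxA, 150 bp for mstB and 70 bp for AN4277.

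The labels give replicates 1 and 2 only as numbers, so whether equal numbers mean a shared culture or batch is not known. Deviations of the first replicates correlated at 0.236 (MSB-treated 3 d and untreated 3 d), -0.399 (MSB-treated 3 d and untreated 2 d) and -0.288 (untreated 3 d and untreated 2 d), which does not settle it. With the replicate block the medians were 9.16 and -6.32 points, which equal those without it by construction, with crossed numbers too. The sign-flip permutation test of 2 pairs cannot go below p = 0.5, so its 0 calls, crossed or not, say nothing about pairing. A list shows no signal below its weakest peak, and none held a peak under 200 bp, which limits artA.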
